A study of Mus musculus with 36 samples.

Results

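The retina 2 weeks after optic nerve (ON) crush was compared with naïve retina by bulk RNA-seq. The 2 crush libraries and the 2 naïve libraries were picked by their tissue, time and treatment labels, and they are 4 of the 36 libraries of the series. All mice were C57BL/6 and 2 to 4 months old. The ON of 1 eye was crushed for 3 s with self-closing forceps, and naïve tissue came from mice with no procedure on either eye. Each library pooled retinal RNA of 2 mice of 1 sex, so each group holds a female pool and a male pool from 4 mice in all. Retinas 3 days after crush (2 libraries) and 2 weeks after microbead injection, a model of glaucoma in which beads raise the eye pressure (2 libraries), are set beside them. Whole retina was used, and in bulk tissue fewer cells of a type and less RNA per cell cannot be told apart.

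Retinal ganglion cells (RGCs) are the output neurons of the retina, and their axons form the ON. A crush cuts these axons, after which injured RGCs switch on a stress and regrowth programme, and many die over the following weeks. Rods, cones, bipolar, amacrine and horizontal cells send no axon into the nerve. Müller glia, astrocytes and microglia are the support and immune cells of the retina, and they respond to the loss of RGCs through gp130-STAT3 signalling, complement and interferon pathways.

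Total counts were 55990831 and 36514858 in the female and male crush pools and 43795226 and 37153668 in the naïve pools. Levels are given as CPM (counts scaled to the library total after TMM correction) for the female pool and then the male pool of each group. Rod genes marked all libraries as retina, and the 13 genes of the rod list summed to 39127 and 38246 FPKM (the length-corrected level) in naïve pools and to 43038 and 41497 FPKM 2 weeks after crush. Genes that mark neutrophils and monocytes summed to at most 3.5 FPKM and T cell genes to at most 0.689 FPKM in the naïve, 3 day crush, 2 week crush and 2 week glaucoma libraries. Y-linked and X-inactivation genes matched the sex label in 12 of 12 retinal libraries.

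Of 22671 genes tested, 54 (0.238%) were called lower and 17 (0.075%) higher 2 weeks after crush than in naïve retina, with an adjusted p under 0.05 in edgeR's quasi-likelihood test and a log2 fold change beyond 1. The median log2 fold change of all tested genes was 0.01. At an unadjusted p under 0.05, 1198 genes were lower and 839 higher. Both crush pools lay below both naïve pools for 19.8% of tested genes and above them for 21.6%. The 54 lower genes kept 2.31 to 49.5% of the naïve mean CPM, with a median of 24.2%. Of the 54 lower genes 18, and of the 17 higher genes 6, belonged to the gene lists described here.

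The 8 RGC markers that the study used to judge RGC injury in these samples all had both crush pools below both naïve pools (19.8% of all tested genes did), and 5 of the 8 fell past the test. Since the study read them as a sign of RGC loss here, their direction is not independent evidence. Their median log2 fold change was −3.58 against 0.01 over all genes. *Rbpms* encodes an RNA-binding protein that marks nearly all RGCs. It stood at 44.9 and 38 CPM in naïve retina and at 3.78 and 5.68 CPM 2 weeks after crush. Its log2 fold change was −3.15 ± 0.26 (approximate SE, adjusted p = 0.0106). Its paralogue *Rbpms2* (chr9:65629648-65660528, GRCm38) went from 45.9 and 37.3 CPM to 2.67 and 0.72 CPM, with a log2 fold change of −4.76 ± 0.42 (adjusted p = 0.0143). These 2 genes therefore ended at 11.4% and 4.07% of the naïve mean. *Sncg*, gamma-synuclein (chr14:34370274-34374789, minus strand), was at 255 and 204 CPM in naïve retina and at 24.2 and 24 CPM after crush, a log2 fold change of −3.25 ± 0.13 (adjusted p = 0.00156). The 2 crush pools were almost equal for this gene and far from the naïve pair.

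*Pou4f1*, the RGC transcription factor BRN3A, fell from 13.5 and 10.6 CPM to 0.841 and 0.748 CPM, a log2 fold change of −3.92 ± 0.30 (adjusted p = 0.0101). Its relatives *Pou4f2* and *Pou4f3* had log2 fold changes of −3.92 ± 0.60 and −3.90 ± 0.89, with adjusted p = 0.0789 and 0.204. Their naïve levels were low, 5.73 and 5.73 CPM for *Pou4f2* and 4.9 and 3.11 CPM for *Pou4f3*, and DESeq2 called both lower. *Tubb3*, a neuronal beta-tubulin that other retinal neurons also express, kept more of its level, going from 176 and 158 CPM to 72.6 and 70.4 CPM (log2 fold change −1.23 ± 0.12, adjusted p = 0.0202). *Thy1*, a cell-surface protein of RGCs, was at 15.6 and 37.5 CPM in naïve retina and at 11 and 15.2 CPM after crush (adjusted p = 0.455). The 2 naïve pools differed more from each other for *Thy1* than the female naïve pool did from the male crush pool.

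**Figure D1:**
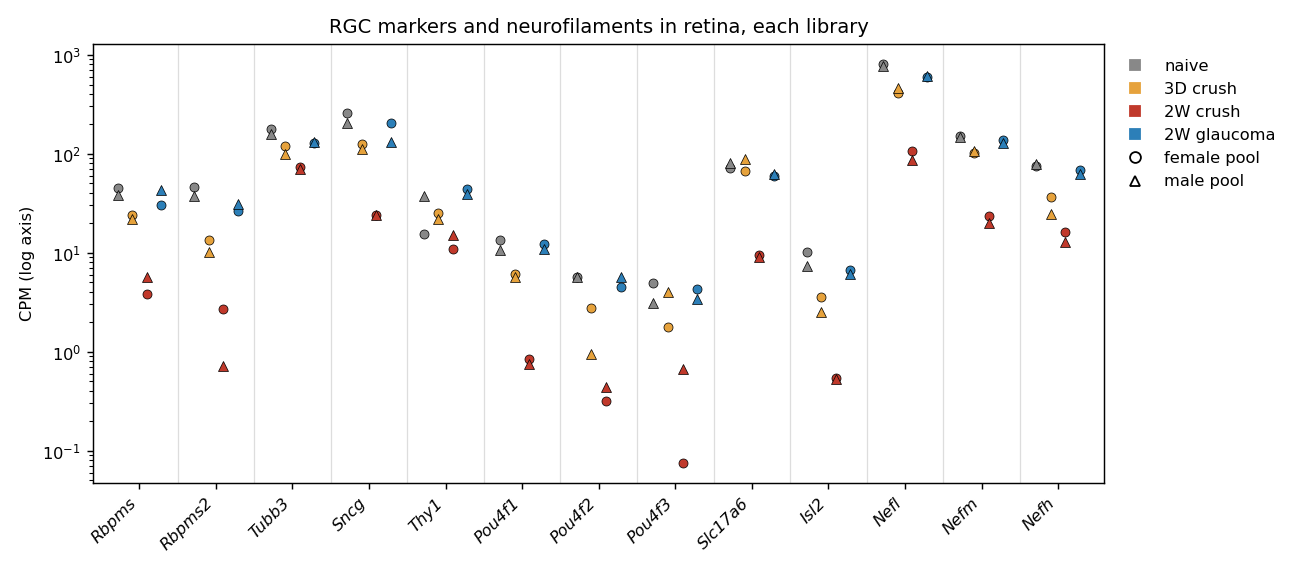
Each point is 1 retinal library, drawn as CPM on a log axis for 13 RGC and neurofilament genes. The 2 week crush pools lie lowest for each of these genes, at 24.2 and 24 CPM for *Sncg* against 255 and 204 CPM in naïve pools, and the 2 week glaucoma pools stay near the naïve ones for most.

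Among 16 other genes known from RGCs, 6 fell past the test and 15 had both crush pools below both naïve pools (19.8% of all tested genes did), with a median log2 fold change of −1.56. *Slc17a6* (chr7:51622006-51671119), the vesicular glutamate transporter VGLUT2 through which RGCs load their transmitter, was at 72.4 and 79.7 CPM in naïve retina and at 9.57 and 9.03 CPM after crush (log2 fold change −3.04 ± 0.16, adjusted p = 0.00249). *Nell2*, a secreted glycoprotein of neurons, fell from 52.3 and 47.3 CPM to 7.85 and 6.92 CPM (adjusted p = 0.00381). *Nrn1*, the neurite growth factor neuritin, fell from 45.4 and 38.1 CPM to 3.63 and 2.88 CPM (adjusted p = 0.0202). *Isl2*, a homeobox factor of part of the RGCs, fell to 6.12% of its naïve mean, and *Chrna6*, a nicotinic receptor subunit, to 25%. *Tppp3*, a tubulin-binding protein, fell from 175 and 146 CPM to 53.5 and 47.2 CPM (adjusted p = 0.0106). *Adcyap1*, the neuropeptide PACAP, was the exception, with overlapping groups, at 3.77 and 4.63 CPM in naïve retina and 4.52 and 4.82 CPM 2 weeks after crush.

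The promoter of *Isl2* is shown because it was 1 of 2 promoters of lower genes that held the cyclic AMP response element TGACGTCA, and that of *Tubb3* because it was 1 of 2 with the ATF4-CEBP element TGATGNAA. Both are from RefSeq (GRCm38.p6), run 250 bases before to 50 after the RefSeq start, and carry the match in capitals. *Isl2* spans chr9:55540899-55541198 on the plus strand, with the match 11 bases before the start. *Tubb3* spans chr8:123411303-123411602 on the plus strand, with the match 62 bases before the start and read from the other strand.
Isl2: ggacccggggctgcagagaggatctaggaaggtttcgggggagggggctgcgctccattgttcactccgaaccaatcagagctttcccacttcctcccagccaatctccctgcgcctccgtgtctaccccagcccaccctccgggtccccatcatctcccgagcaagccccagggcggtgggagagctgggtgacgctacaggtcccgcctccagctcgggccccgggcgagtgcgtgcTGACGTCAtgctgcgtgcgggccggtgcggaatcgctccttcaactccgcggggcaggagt
Tubb3: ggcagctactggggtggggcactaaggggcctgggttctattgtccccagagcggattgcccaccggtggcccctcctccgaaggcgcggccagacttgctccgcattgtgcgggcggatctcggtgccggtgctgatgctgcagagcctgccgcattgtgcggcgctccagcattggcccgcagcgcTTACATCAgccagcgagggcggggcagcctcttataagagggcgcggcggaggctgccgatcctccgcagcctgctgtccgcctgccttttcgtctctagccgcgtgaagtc
Of the 54 lower genes, 37 had a promoter in the RefSeq table, and 2 (5.41%) held each of these elements on either strand, against 1.88% of all 27025 promoters for TGACGTCA and 4.06% for TGATGNAA. The POU4F core AATTAAT was in 0 of the 37 and in 2.64% of all promoters.

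Of 16 RGC subtype genes tested, *Pvalb* fell past the test, and the list's median log2 fold change was −0.37. Both crush pools lay below both naïve pools for 9 of 16 and above them for 1, against 19.8% and 21.6% of all tested genes. At an unadjusted p under 0.05, 3 were lower and 0 higher. *Pvalb*, the calcium buffer parvalbumin, was at 30.5 and 32.1 CPM in naïve retina and at 2.45 and 2.6 CPM after crush (log2 fold change −3.65 ± 0.38, adjusted p = 0.0232). *Opn4*, the photopigment melanopsin, was at 5.7 and 5.43 CPM and then at 1.87 and 1.99 CPM (adjusted p = 0.212). *Spp1*, osteopontin of alpha RGCs, was the subtype gene with both crush pools above both naïve pools, at 64.6 and 65.5 CPM against 54.9 and 56.3 CPM (adjusted p = 0.692). *Cartpt*, a neuropeptide of ON-OFF direction-selective RGCs, was at 253 and 230 CPM after crush and at 282 and 269 CPM in naïve retina (adjusted p = 0.712).

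Genes of the axonal cytoskeleton fell in 5 of 13 cases, and 12 of 13 had both crush pools below both naïve pools (19.8% of all tested genes did). *Nefl*, the light neurofilament chain (chr14:68083863-68089095), was at 807 and 765 CPM in naïve retina and at 106 and 87.3 CPM after crush (log2 fold change −3.03 ± 0.14, adjusted p = 0.00164). *Nefm*, the medium chain, went from 152 and 149 CPM to 23.2 and 20 CPM (adjusted p = 0.00164). The exons of *Nefl* and *Nefm* overlap on opposite strands in the annotation, and strand use in counting is not stated, so reads of the 2 genes may be shared. *Nefh*, the heavy chain, lies on another chromosome and went from 74.4 and 78.1 CPM to 16.1 and 12.7 CPM (log2 fold change −2.43 ± 0.19, adjusted p = 0.0103). *Ina*, alpha-internexin, ended at 43.4% of the naïve mean and *Stmn2*, a stathmin of growing axons, at 48.1%, both past the test. *Map1b*, a microtubule-associated protein found in many retinal neurons, was the 1 member with overlapping groups, at 1100 and 1238 CPM in naïve retina and 1198 and 1258 CPM after crush.

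Of 14 genes for axonal excitability and the node of Ranvier, 0 passed edgeR's test, and DESeq2 called 3 lower. At an unadjusted p under 0.05, 9 were lower and 0 higher, against 1198 and 839 of all 22671 tested genes. *Scn4b*, a sodium channel subunit, was at 4.67 and 10 CPM in naïve retina and at 0.299 and 0 CPM after crush (adjusted p = 0.166).

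Most of the lower genes were outside the lists. *Irx4*, an Iroquois homeobox factor, had the lowest share of its naïve level, with 6.03 and 4 CPM in naïve retina and 0.0934 and 0.138 CPM after crush (log2 fold change −5.42 ± 0.55, adjusted p = 0.0221). *Trarg1*, a membrane protein of glucose transporter traffic, went from 39.2 and 33.9 CPM to 0.972 and 1.72 CPM (log2 fold change −4.79 ± 0.37, adjusted p = 0.0103). *Sbk1*, a protein kinase, had nearly equal pools in each group, 82.9 and 82.3 CPM in naïve retina and 9.12 and 8.92 CPM after crush (log2 fold change −3.21 ± 0.13, adjusted p = 0.00156). *Rgs4*, a regulator of G protein signalling, ended at 15.4% of its naïve mean, *Tmem163*, a zinc transporter of vesicles, at 11.9%, and *Cyp2s1*, a cytochrome P450, at 10.9%. Several others, named here after their values were seen, serve synapses or potassium currents: *Cplx1* (complexin 1) ended at 26.3%, *Vamp1* at 34.9%, *Sv2c* at 36.6%, *Kcnd2* at 19.8%, *Kcnj3* at 17.0% and *Kcnip4* at 31.7% of the naïve mean. *Fgf1*, a growth factor that RGCs and other retinal cells make, ended at 33.0%, also named after its values were seen.

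On the length-corrected scale the lower genes with the largest loss of transcript were *Sncg*, *Calb2*, *Nefl*, *Stmn3* and *Tppp3*. *Calb2*, the calcium buffer calretinin of amacrine cells and RGCs, was at 267 and 223 FPKM in naïve retina and at 67.8 and 62.0 FPKM after crush. *Nefl* was at 202 and 192 FPKM and then at 26.2 and 22.2 FPKM. *Stmn3*, a stathmin, was at 281 and 263 FPKM and then at 137 and 132 FPKM. Of the 54 lower calls, 52 also had FPKM group means at least 2-fold apart in the same direction, and the other 2 were *Zfp280b*, a zinc finger gene (6.36 against 3.71 FPKM), and *Lrrc47* (6.2 against 3.12 FPKM).

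Of the higher genes, *Sprr1a* and *H3c14* had 0 counts in both naïve pools. *Sprr1a* (chr3:92483952-92485895, minus strand), a small proline-rich protein of injured neurons that regrow axons, was at 0 in naïve retina. It was at 5.55 and 7.12 CPM 2 weeks after crush (adjusted p = 0.00611). This was 162-fold above a floor of 3 counts over the naïve group. That floor is less than a read pair adds to the counts, so the fold is not a lower bound. *H3c14*, a histone H3 gene, was at 0 in naïve retina and at 12.9 and 13.4 CPM after crush (adjusted p = 0.00605). This was 342-fold above the same floor, and likewise not a lower bound. *H3c14* shares exon sequence with *Gm20634* on the same strand, so its counts are uncertain, and it was also at 10.7 and 11.4 CPM in the glaucoma pools. *Ecel1* (chr1:87147655-87156521, minus strand), the damage-induced neuronal endopeptidase, went from 0.589 and 0.827 CPM to 34.3 and 31.8 CPM, a log2 fold change of 5.57 ± 0.33 (adjusted p = 0.00381).

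The *Sprr1a* promoter is printed because it was the 1 promoter of a higher gene that held the AP-1 element TGANTCA, in capitals and present 2 times, the first 146 bases before the start. It spans chr3:92485832-92486131 on the minus strand in RefSeq (GRCm38.p6).
Sprr1a: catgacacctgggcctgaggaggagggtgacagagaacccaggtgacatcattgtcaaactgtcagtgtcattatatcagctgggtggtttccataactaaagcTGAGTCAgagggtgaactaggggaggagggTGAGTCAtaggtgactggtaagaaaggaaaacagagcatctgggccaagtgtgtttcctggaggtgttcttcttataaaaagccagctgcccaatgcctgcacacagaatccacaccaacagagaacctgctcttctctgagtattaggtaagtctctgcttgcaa
Of the 17 higher genes, 15 had a promoter, and 1 of these (6.67%) held the AP-1 element, against 7.93% of all promoters. The STAT site TTCNNNGAA and the interferon response core GAAANNGAA were each in 1 of the 15 (6.67%), against 8.47% and 8.57% of all promoters.

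Beyond *Sprr1a* and *Ecel1*, the neuronal injury list of 14 genes held no further edgeR call, and its median log2 fold change was 0.31. Both crush pools lay above both naïve pools for 8 of the 14 and below them for 4, against 21.6% and 19.8% of all tested genes. At an unadjusted p under 0.05, 6 were higher and 2 lower. *Atf3*, the transcription factor that marks injured neurons, was at 15 and 18 CPM in naïve retina and at 38.4 and 30 CPM 2 weeks after crush (log2 fold change 1.07 ± 0.31, adjusted p = 0.322). *Sox11*, a factor of axon growth, was at 2.38 and 3.58 CPM and then at 6.11 and 8.31 CPM (adjusted p = 0.116). *Mmp12*, a metalloelastase, was at 1.04 and 0.413 CPM and then at 3.68 and 4.29 CPM (adjusted p = 0.125). DESeq2 called all 3 higher. *Jun*, whose product pairs with FOS and ATF proteins at AP-1 sites, was at 85.7 and 80.4 CPM and then at 114 and 100 CPM (adjusted p = 0.561). *Gal*, the neuropeptide galanin, and *Stmn4*, a stathmin, were among those with both crush pools below both naïve pools, with *Gal* at 4.31 and 3.28 CPM and then at 1.83 and 1.52 CPM (adjusted p = 0.305).

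The integrated stress response, BCL2 family and p53 target lists had medians near 0 at 2 weeks. Both crush pools lay above both naïve pools for 6 of 13, 6 of 14 and 2 of 10 genes, and below for 3, 1 and 0. Over all tested genes 21.6% were above and 19.8% below. In edgeR 0 of 13, 0 of 14 and 0 of 10 tested members passed, and DESeq2 called 0 in each. At an unadjusted p under 0.05 there were 2 lower members of the first list, 1 higher member of the second and 1 higher member of the third. The medians of the log2 fold change were 0.06, 0.13 and 0.02. *Atf4*, the central factor of the integrated stress response, was at 189 and 220 CPM in naïve retina and at 212 and 216 CPM 2 weeks after crush (adjusted p = 0.928). *Ddit3* (ENSMUSG00000025408), the stress factor CHOP, was at 85.6 and 88.3 CPM and then at 115 and 101 CPM (adjusted p = 0.7). *Bax*, which drives RGC death, was at 53.8 and 50.9 CPM and then at 60 and 54.9 CPM (adjusted p = 0.853).

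**Figure D2:**
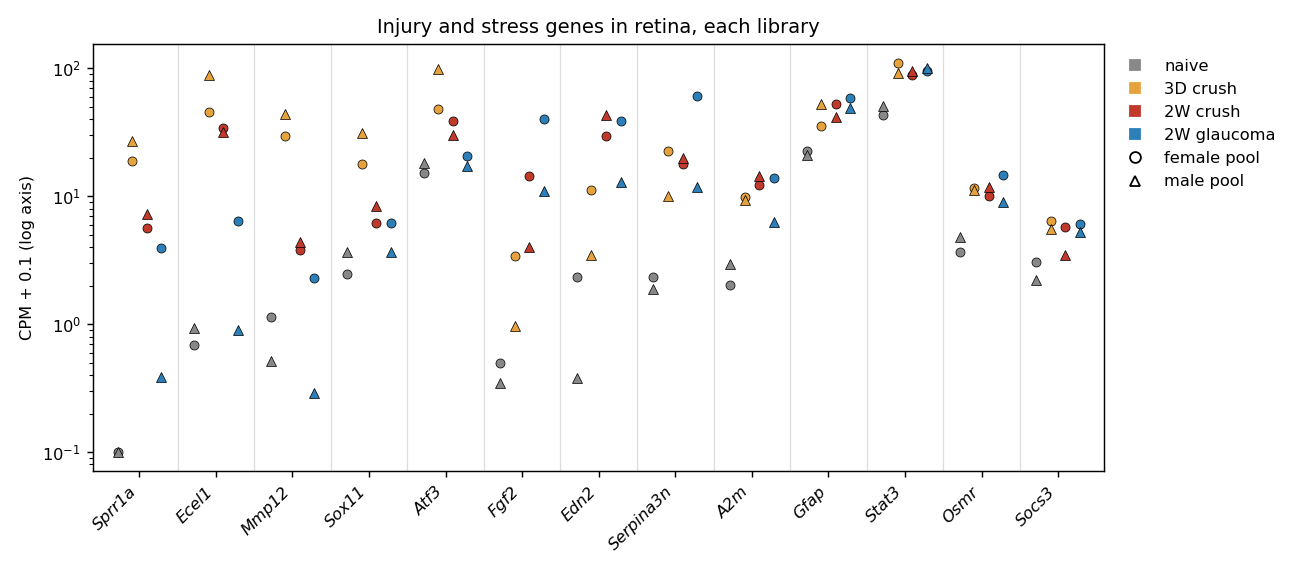
Each point is 1 retinal library for 13 injury and stress genes, drawn as CPM + 0.1 on a log axis so that the 0 counts of *Sprr1a* in naïve pools can be shown. The neuronal genes *Sprr1a*, *Ecel1*, *Mmp12*, *Sox11* and *Atf3* lie higher at 3 days than at 2 weeks after crush. *Fgf2* and *Edn2* lie higher at 2 weeks. None of these differences between the times passed edgeR's test.

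Retinal stress and gp130-STAT3 genes were higher as a list, with 4 of 14 past the test, 13 of 14 with both crush pools above both naïve pools (21.6% of all tested genes were) and a median log2 fold change of 1.32. *Serpina3n*, a protease inhibitor of reactive glia, rose from 2.22 and 1.79 CPM to 17.6 and 19.7 CPM (log2 fold change 3.24 ± 0.38, adjusted p = 0.0349). *A2m*, alpha-2-macroglobulin, rose from 1.93 and 2.84 CPM to 12.2 and 14.2 CPM (log2 fold change 2.47 ± 0.28, adjusted p = 0.0321). *Fgf2*, a growth factor of stressed photoreceptors and Müller glia, was at 0.401 and 0.248 CPM and then at 14.3 and 3.9 CPM (log2 fold change 4.60 ± 0.47, adjusted p = 0.0221). The female crush pool was the higher one for *Fgf2*, and without it the adjusted p was 0.0717. *Fgf2* exons overlap *Nudt6* on the other strand, from which its reads may not be separable. *Cebpd*, a transcription factor downstream of STAT3, rose from 11.2 and 11.4 CPM to 26 and 32 CPM (adjusted p = 0.0441), a call lost in 7 of 14 alternative analyses.

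The study named *Fgf2* and the stress genes below for the retina early in bead glaucoma, a different model from the crush examined here. It compared glaucoma with the same naïve pools, so the direction of these genes here is not independent evidence. Apart from *Fgf2*, these genes did not pass edgeR's test 2 weeks after crush. DESeq2 called *Edn2*, *Gfap* and *Osmr* higher, and in the whole stress list it called 8 of 14 members higher and 0 lower. *Edn2*, the peptide endothelin 2 of injured photoreceptors, was at 2.22 and 0.276 CPM in naïve retina and at 29.7 and 43 CPM after crush (log2 fold change 5.32 ± 0.82, adjusted p = 0.0789). Both crush pools lay far above both naïve pools for *Edn2*, the naïve pools were far from each other, and it passed in 8 of 14 alternative analyses. *Gfap*, the intermediate filament of reactive glia, was at 22.3 and 20.7 CPM and then at 52.6 and 41.6 CPM (log2 fold change 1.12 ± 0.23, adjusted p = 0.165, DESeq2 adjusted p = 0.000501). In its discussion the study states that *Gfap* did not rise in any region or model. Its results, however, name *Gfap* among the genes higher in retina at the earliest glaucoma time. *Stat3* was at 42.9 and 50.5 CPM and then at 87.7 and 94.6 CPM (adjusted p = 0.0883). *Osmr*, the oncostatin M receptor, was at 3.56 and 4.66 CPM and then at 9.96 and 11.7 CPM (adjusted p = 0.118). *Socs3*, the feedback inhibitor of STAT3, was at 2.97 and 2.12 CPM and then at 5.66 and 3.38 CPM (adjusted p = 0.519).

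The Müller glia list had a median of 0.14 on the log2 scale, with 0 of 14 called by edgeR or DESeq2. At an unadjusted p under 0.05, 4 were higher and 1 lower, against 839 and 1198 of all 22671 tested genes. Both crush pools lay above both naïve pools for 6 and below them for 1, against 21.6% and 19.8% of all tested genes. *Glul*, glutamine synthetase, was at 1303 and 1229 CPM in naïve retina and at 1009 and 966 CPM after crush (adjusted p = 0.179). *Sox9*, a Müller glia transcription factor, was at 21.8 and 22.5 CPM and then at 34.6 and 36.7 CPM (adjusted p = 0.182). Of the astrocyte lists, the general reactive (PAN) list had 1 call of 12, *Serpina3n*, a median of 0.87, 7 higher members at an unadjusted p under 0.05 and 4 DESeq2 calls, while the A1 and A2 lists had 0 of 11 and 0 of 10 edgeR calls with medians of 1.04 and 0.38. At an unadjusted p under 0.05 the A1 list had 6 higher members and 1 lower and the A2 list 1 higher, and DESeq2 called 4 and 0. *Psmb8*, an immunoproteasome subunit counted in the A1 list, was at 6.32 and 6.34 CPM and then at 17.8 and 20.3 CPM (adjusted p = 0.0608).

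The microglial, complement, interferon and antigen presentation lists had medians above 0 and no edgeR call. These log2 medians were 0.60 for homeostatic and 1.22 for activated microglia, 1.09 for complement, 1.13 for interferon and 0.97 for antigen presentation. In that order 2 week glaucoma had 0.42, 1.11, 1.02, 0.57 and 0.90 against the same naïve pools. The 3 day crush pools had 0.38, 1.13, 0.96, 0.58 and 0.59. Of all 22671 tested genes 839 were higher at an unadjusted p under 0.05. Both crush pools lay above both naïve pools for 8 of 12 homeostatic microglia, 14 of 18 activated microglia, 11 of 16 complement and 11 of 14 antigen presentation genes, against 21.6% of all tested genes. In the activated microglia list 0 of 18 passed and 11 were higher at an unadjusted p under 0.05, the median log2 fold change was 1.22 and DESeq2 called 7. *Tyrobp*, a microglial signalling adaptor, was at 4.97 and 5.68 CPM in naïve retina and at 19.3 and 18.2 CPM after crush (adjusted p = 0.234). *Ctss*, the lysosomal protease cathepsin S, was at 14.7 and 14.8 CPM and then at 48.4 and 37.4 CPM (adjusted p = 0.115). *Itgax*, the integrin CD11c, had 0 counts in both naïve pools and 1.29 and 0.554 CPM after crush (adjusted p = 0.305). Among 12 genes of homeostatic microglia, 0 passed, 5 were higher at an unadjusted p under 0.05 and DESeq2 called *Cx3cr1*, which was at 5.42 and 4.36 CPM and then at 13 and 12.6 CPM. *P2ry12*, a purinergic receptor of resting microglia, was at 1.41 and 1.85 CPM and then at 1.01 and 0.858 CPM (adjusted p = 0.722).

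In the complement list 0 of 16 passed, 6 were higher at an unadjusted p under 0.05 and DESeq2 called 5. *C1qa*, *C1qb* and *C1qc*, the 3 chains of the classical pathway's first component, reached 271%, 268% and 314% of the naïve mean, with adjusted p between 0.105 and 0.139. *C4b* was at 4.27 and 5.29 CPM in naïve retina and at 23.4 and 21 CPM after crush (log2 fold change 2.18 ± 0.35, adjusted p = 0.0883). *C3*, the central component, was at 1.11 and 2.26 CPM and then at 0.43 and 1.83 CPM (adjusted p = 0.897). The interferon-stimulated list had 19 of 22 genes with both crush pools above both naïve pools and 0 below, where 21.6% of all tested genes were above. In edgeR 0 of its genes passed, 14 were higher at an unadjusted p under 0.05 and DESeq2 called 7. *Oasl2* was at 10.3 and 11.1 CPM and then at 29.9 and 23.4 CPM (adjusted p = 0.0863), and *Irf9*, a transcription factor of the interferon response, at 11.4 and 9.57 CPM and then at 24.4 and 25.2 CPM (adjusted p = 0.0843). *Ube2l6*, the enzyme that conjugates ISG15, was not in that list and rose from 2.48 and 1.82 CPM to 17.3 and 11.7 CPM (log2 fold change 2.73 ± 0.27, adjusted p = 0.0202). In the antigen presentation list 0 of 14 passed, 7 were higher at an unadjusted p under 0.05 and DESeq2 called *B2m* and *Psmb8*. *B2m*, the light chain of MHC class I, was at 28.5 and 29.7 CPM and then at 75 and 72.9 CPM (adjusted p = 0.156).

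Marker lists of the neurons that send no axon into the nerve had medians near 0. Both crush pools were above both naïve pools for 6 of 13 rod, 3 of 10 cone and 3 of 13 bipolar genes. For horizontal and amacrine cell genes it was 1 of 5 and 6 of 15. They were below for 2 genes in each list and for 3 in the amacrine list. Over all tested genes 21.6% were above and 19.8% below. Rod, cone, bipolar and horizontal lists had medians of 0.06, −0.03, −0.04 and −0.09 on the log2 scale, and 0 of 41 genes were called by edgeR or by DESeq2. At an unadjusted p under 0.05 each of the rod, cone and bipolar lists had 1 higher and 1 lower gene, and the horizontal cell list 1 lower. *Sag*, the rod arrestin, was at 9973 and 9483 CPM in naïve retina and at 14232 and 13278 CPM after crush, with adjusted p = 0.0177 but a log2 fold change of 0.49, under the limit of 1. *Gnb3*, a G protein subunit of cones and ON bipolar cells, was at 638 and 587 CPM and then at 988 and 998 CPM (log2 fold change 0.69, adjusted p = 0.0541, DESeq2 adjusted p = 0.000102). In the amacrine list the 1 call of 15 was *Calb2* (log2 fold change −1.92 ± 0.13, adjusted p = 0.00631), and *Gad1*, *Chat* and *Th* had adjusted p between 0.884 and 0.946.

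Of the lists for cells outside the neural retina, those of myelin, pigment epithelium, neutrophils and monocytes, and T cells had medians of −0.44, −0.53, −0.59 and −1.13 on the log2 scale, and edgeR called 0 of their 9, 9, 4 and 3 tested genes. At an unadjusted p under 0.05 they held 3, 0, 1 and 0 lower genes and 0 higher ones. *Mobp*, a myelin protein, was at 10.1 and 9.68 CPM in naïve retina and at 2.28 and 3.02 CPM after crush (adjusted p = 0.0789), and DESeq2 called it lower. The 10 oligodendrocyte genes summed to 44.6 and 41.5 FPKM in naïve retina and 27.8 and 31.7 FPKM after crush, and their part in the lower axonal genes was not tested. The 9 pigment epithelium genes summed to 57.5 and 83.5 FPKM and then to 35.4 and 61.5 FPKM. Blood genes summed to 211 and 143 FPKM and then to 156 and 187 FPKM. The median over 11 housekeeping genes was 0.01 on the log2 scale, with *B2m* the 1 member that DESeq2 called.

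**Figure D3:**
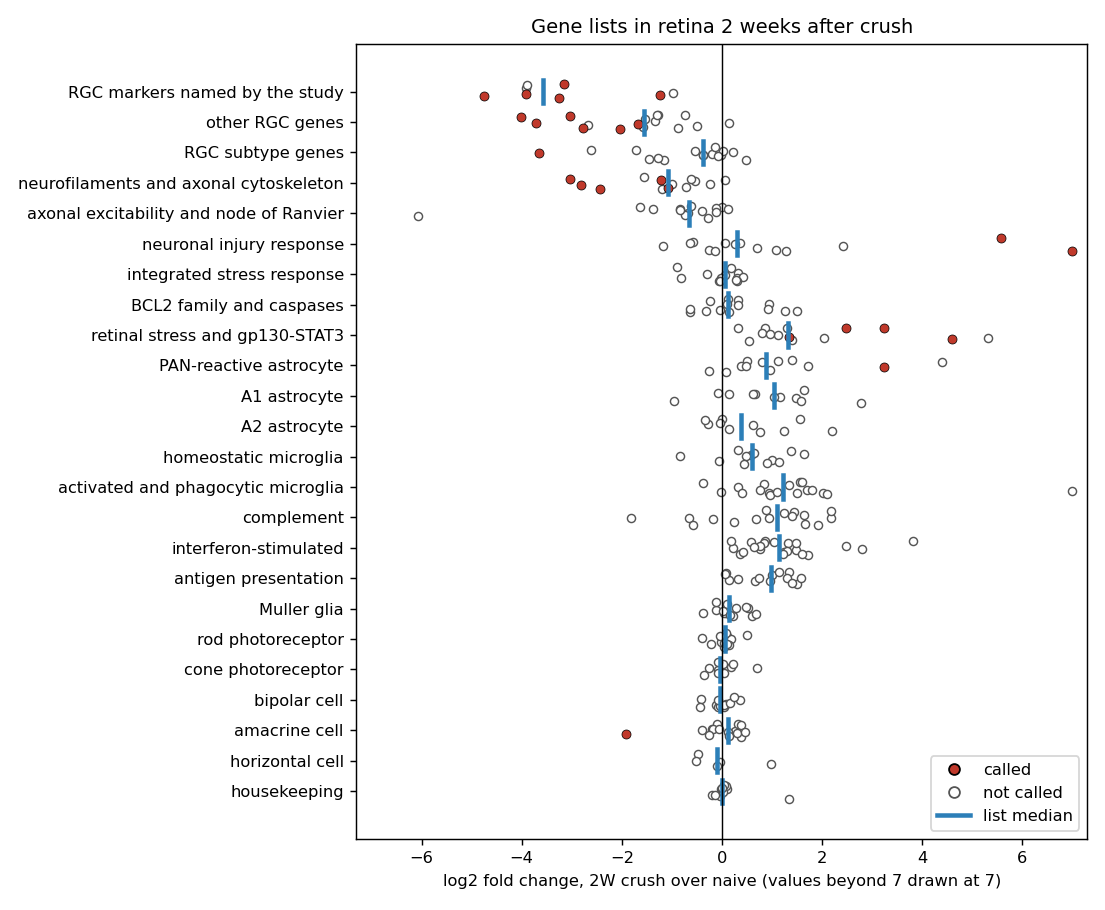
Each point is a tested gene of 24 lists, placed by its log2 fold change between 2 week crush and naïve retina, with called genes filled and list medians as bars, and 2 values beyond 7 drawn at 7. The RGC marker median lies at −3.58, the stress and interferon medians at 1.32 and 1.13, and photoreceptor, bipolar and horizontal medians near 0.

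Several of the higher calls had other marks of uncertainty. *Dpm1*, a dolichol-phosphate mannose synthase subunit, was at 15.6 and 15 CPM in naïve retina and at 59.7 and 68.1 CPM after crush (adjusted p = 0.0202). The predicted gene *Gm20716*, named after its values were seen, overlaps *Dpm1* on the same strand and was at 139 and 151 CPM and then at 5.44 and 1.83 CPM (adjusted p = 0.0103). Counts of *Dpm1*, *Gm20716* and *Adnp* together summed to 155 and 167 CPM in naïve retina, 156 and 151 CPM at 3 days and 65.3 and 70.8 CPM at 2 weeks. The sum was thus not constant, and whether the 2 opposite calls share reads was not tested. *Eif4e*, the cap-binding translation factor, was at 78.2 and 79.6 CPM and then at 213 and 193 CPM (adjusted p = 0.0379), but at 61.2 and 52.1 FPKM and then at 42.6 and 42.1 FPKM. For *Sp1*, *Zfp260* and *Zmym5* the FPKM means differed in the same direction by less than 2-fold, at 174%, 198% and 192% of the naïve mean.

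Across the 17 higher genes the median level was 346% of the naïve mean 2 weeks after crush. It was 278% at 3 days and 325% in 2 week glaucoma, against the same naïve pools. Of the 17, 2 were also called higher in crush than in glaucoma. Some higher genes were as high in the glaucoma pools as after crush. *Sp1*, a general transcription factor, was at 15 and 13.3 CPM in naïve retina, 45.6 and 38.8 CPM 2 weeks after crush and 37.3 and 41.2 CPM in 2 week glaucoma. *Ncoa5*, a nuclear receptor coactivator, was at 25.2 and 21.9 CPM, 69.1 and 65.6 CPM and 59.6 and 80.6 CPM in the same groups. *Rfx2*, a transcription factor of cilia genes, and *Pofut1*, which fucosylates Notch, reached 376% and 346% of the naïve mean after crush and 332% and 325% in glaucoma. For these 4 genes the naïve pools were thus the low pair, below the 3 day crush pools as well, and the part of the naïve pools in these calls was not tested.

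The 2 time points after crush were compared directly. Of 22671 genes, 10 (0.0441%) were lower and 1 (0.00441%) higher at 2 weeks than at 3 days. The 10 lower genes were all among the 54 called lower than naïve. Both comparisons share the 2 week crush pools, so this overlap is not independent evidence. *Slc17a6* was at 66.8 and 87.4 CPM at 3 days, 101% of the naïve mean, and fell afterwards, with a log2 fold change of −3.05 ± 0.16 between the 2 times (adjusted p = 0.00564). *Sncg* was already at 124 and 112 CPM at 3 days, 51.4% of the naïve mean, and fell further to 10.5% (log2 fold change −2.30 ± 0.13, adjusted p = 0.00564). *Nefl* was at 413 and 466 CPM at 3 days and *Nefm* at 101 and 106 CPM, and their log2 fold changes to 2 weeks were −2.20 ± 0.13 and −2.27 ± 0.13 (adjusted p = 0.0065 and 0.00564). *Sbk1* was at 63.6 and 64.5 CPM at 3 days (log2 fold change −2.84 ± 0.13 from 3 days to 2 weeks, adjusted p = 0.00564). *Nell2*, *Rgs4*, *Zfp280b*, *Yrdc* and *Gm20716* were the other 5. *Rbpms2* was at 28.3% of the naïve mean at 3 days, and its further log2 fold change to 2 weeks missed the threshold (adjusted p = 0.103). The 1 higher gene, *Elfn1*, a synaptic adhesion protein, was at 51.8 and 21.4 CPM in naïve retina, 0.992 and 0.939 CPM at 3 days and 37.7 and 12 CPM at 2 weeks (adjusted p = 0.0343), so its 3 day pools were the low pair.

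Across the 54 genes lower at 2 weeks, the 3 day level ranged from 28.3 to 139% of the naïve mean with a median of 62.5%. The genes were chosen by their low 2 week level, which by itself favours a higher 3 day level. At 3 days 36 of them were at or under 75% of naïve and 11 over 90%. The last group held *Slc17a6*, *Zfp280b* and the receptor genes *Gpr26* and *Ccr9*. These receptors, named after their values were seen, were at 128% and 139% of naïve at 3 days and at 25.9% and 28.9% at 2 weeks. Injury genes of neurons had the opposite order, since *Sprr1a* was at 18.8 and 26.7 CPM and *Ecel1* at 45.3 and 88.2 CPM at 3 days. Neither difference between the times passed (adjusted p = 0.147 and 0.511). The medians of the injury list were 1.09 at 3 days and 0.31 at 2 weeks against the same naïve pools, and those of the integrated stress response list 0.62 and 0.06. Interferon-stimulated genes had medians of 0.58 and 1.13.

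**Figure D4:**
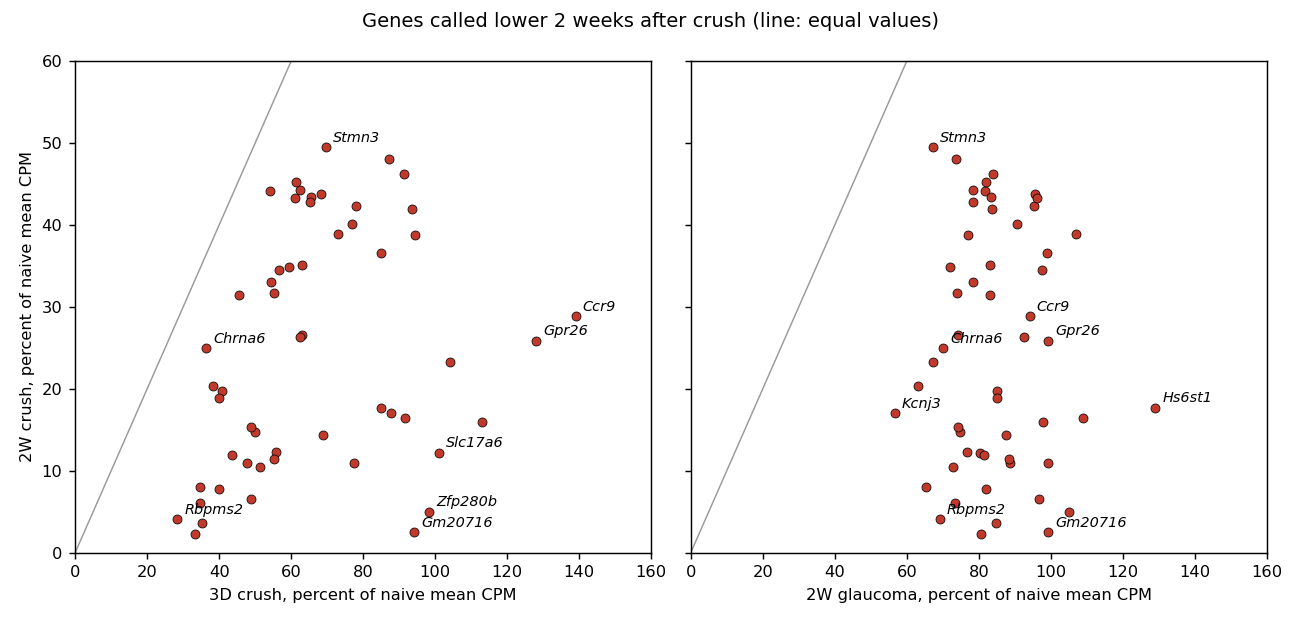
Each point is 1 of the 54 genes called lower 2 weeks after crush, with its 2 week level as a percent of the naïve mean CPM on the y axis and its level 3 days after crush (left) or 2 weeks after bead injection (right) on the x axis. All points lie to the right of the line of equal values, with medians of 24.2% at 2 weeks, 62.5% at 3 days and 83.1% in glaucoma. The genes were chosen by their low 2 week crush level, which by itself favours this position.

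Crush and glaucoma were compared at the same time, 2 weeks, over 24693 genes. In crush 26 genes (0.105%) were lower and 2 (0.0081%) higher. Of the 26, 23 were also called lower than naïve, which by itself ties the 2 comparisons through the same crush pools. *Slc17a6* was at 59.7 and 62.6 CPM in glaucoma (log2 fold change −2.71 ± 0.16 for crush over glaucoma, adjusted p = 0.000185). *Pou4f1* was at 12.3 and 11 CPM in glaucoma, 96.7% of the naïve mean (crush over glaucoma −3.86 ± 0.46 on the log2 scale, adjusted p = 0.0174). *Sncg* was at 204 and 130 CPM (adjusted p = 0.022), *Irx4* at 2.95 and 5.14 CPM (adjusted p = 0.0411) and *Trarg1* at 26.6 and 35.3 CPM (adjusted p = 0.00996). *Rbpms2* missed the threshold in this comparison (adjusted p = 0.0537), as did *Chrna6* (adjusted p = 0.175).

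The remaining 3 of the 26, *Ahnak2*, *Lpin2* and *Pdzd4*, were not called against naïve retina by edgeR, and the last 2 are named after their values were seen. *Ahnak2*, a large scaffold protein, was at 1.5 and 2.13 CPM after crush, 11.8 and 26.1 CPM in naïve retina and 16.9 and 15.5 CPM in glaucoma, so the crush pools were the low pair. Against naïve retina its log2 fold change was −3.37 ± 0.51, with an edgeR adjusted p = 0.0789 and a DESeq2 adjusted p = 4.62e-12. *Pdzd4* was at 1.08 and 0.969 CPM after crush, 1.13 and 1.16 CPM in naïve retina and 6.75 and 7.5 CPM in glaucoma, so the glaucoma pools were apart. *Lpin2*, a phosphatidate phosphatase, was at 54.6 and 60.9 CPM after crush and at 127 and 131 CPM in glaucoma. The 2 genes higher in crush were *Dpm1* and *Zfp260*, the latter at 54.8 and 65.6 CPM after crush and at 15.8 and 13.5 CPM in glaucoma (adjusted p = 0.022). *Ecel1* was at 6.35 and 0.802 CPM and *Sprr1a* at 3.84 and 0.283 CPM in glaucoma, with the female pool higher, and neither difference from crush passed (adjusted p = 0.47 and 0.629). In edgeR's fit of all 12 retinal libraries, used for this comparison, crush against naïve retina did not pass for either gene. There *Ecel1* had a log2 fold change of 5.58 over naïve retina (adjusted p = 0.163). The stress list had medians of 1.32 after crush and 1.39 in glaucoma against the shared naïve pools, and *Serpina3n* was at 60.8 and 11.6 CPM in glaucoma. *Lcn2*, the iron-binding protein lipocalin 2, was at 167 and 24.2 CPM in glaucoma but at 9.16 and 6.53 CPM after crush and 4.71 and 5.51 CPM in naïve retina. 

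The calls rest on 2 pools a group, and leaving out 1 pool moved the counts. Without the male crush pool 127 genes were lower and 43 higher, without the female crush pool 66 and 28, without the female naïve pool 64 and 56, and without the male naïve pool 107 and 79. Of the 71 calls, 23 held in all 14 alternative analyses, among them *Sncg*, *Rbpms*, *Rbpms2*, *Tubb3*, *Slc17a6*, *Nell2*, *Nrn1*, *Pvalb*, *Calb2* and the 3 neurofilament genes. The only higher genes that held in all were *Dpm1* and *Ncoa5*. The calls of *Sprr1a*, *Ecel1* and *Serpina3n* were each lost in the fit of all 12 retinal libraries.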

How the data were processed

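Per the labels and the study's methods, the authors aligned paired reads with HISAT2 (2.2.1) to GRCm38 and assembled them with StringTie (1.3.0) and Gencode annotation. The deposited gene table holds estimated counts, already whole, and the deposited FPKM values come from StringTie. Some of the deposited FPKM columns used here, that of the male naïve library among them, hold 1 value below 0, which was set to 0. Strand use was not given in the sources used here. The count table has 55487 genes, and 24 columns of other tissues were not used.

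Counts were tested with edgeR (4.0.16, R 4.3.3), TMM scaling and a filter on low counts (minimum 10, total 15), with group and sex as terms. Comparisons with naïve and 3 day crush used 6 libraries, and that with glaucoma all 12 retinal libraries. The sex term pairs the pools by their sex label. With 2 pools a group, p-values measure the spread among these pools. The ± values are approximate SEs, the absolute log2 fold change divided by the square root of edgeR's F statistic. DESeq2 (1.42.0), which the study itself used with sex as a term, and limma (3.58.1) served as alternatives. The code was tested on simulated data. Total counts limit precision for counting error only, and a read pair adds about 4 counts. Named genes were members of 41 fixed lists and the genes with the largest changes among those called. The members and lists were chosen with earlier results of these data known.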

Additional observations from a re-analysis of the deposited data

Results flagged for a closer look

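The 11 genes that differed between 2 weeks and 3 days after crush by edgeR's test of that difference stood out, with *Elfn1* higher at 2 weeks by a log2 fold change of 4.44. The log2 fold changes of the lower genes were −5.30 for *Gm20716*, −4.29 for *Zfp280b*, −3.05 for *Slc17a6*, −2.84 for *Sbk1*, −2.30 for *Sncg*, −2.27 for *Nefm*, −2.20 for *Nefl*, −2.19 for *Yrdc*, −1.77 for *Nell2* and −1.68 for *Rgs4*. *Gm20716* overlaps *Dpm1* on the same strand, and whether they share reads was not tested. *Zfp280b* fell by less than 2-fold in FPKM against naïve retina.

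Of 394 list members at 1 CPM or more, 3 moved in opposite directions in the female and male pools by over 1 on the log2 scale, and these differences were not tested. *Apoe*, a lipid carrier of glia, had a log2 difference of −1.89 in females and 2.71 in males. *Bcl2l1*, the survival factor BCL-XL, had −1.96 in females and 1.68 in males. *Penk*, the enkephalin precursor, had −1.48 in females and 1.20 in males.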

How the results depend on the processing

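With 2 pools a group, the number of calls moved with the method. For 2 weeks against naïve, DESeq2 called 125 higher and 224 lower, no filter on low counts 54 and 120, the 4 libraries alone 28 higher, all 12 libraries 10 higher, and leaving out 1 pool 28 to 79 higher and 64 to 127 lower. All 71 calls were among the 349 of DESeq2, and 45 of 71 were among the 61 with all 12 libraries. Without the replicate block 103 genes were called, 68 of them shared. For 2 weeks against 3 days, DESeq2 called 35 higher and 123 lower, no filter 14 and 55, a filter at 1 CPM 4 higher, counts divided by 4 gave 5 and 21, no replicate block 4 and 27, and leaving out 1 pool 11 to 25 and 14 to 68. For crush against glaucoma, DESeq2 called 28 higher and 153 lower, no filter 14 and 72, no replicate block 4 higher, the 4 libraries alone 8 higher, and leaving out 1 pool 0 to 27 and 16 to 26. It was 0 higher without the female crush pool. List members called were 37 higher and 34 lower in DESeq2, and 4 to 13 and 18 to 23 with 1 pool left out. *Eif4e* reversed with limma on log2(FPKM + 1), at −0.41. The cause of these differences was not tested. For single genes, 1336 values kept direction and side of the threshold, 217 lost the call and 20 gained it. These were genes already called in the main fits, with the RGC markers and stress genes named by the study. Few reversals could therefore arise. Requiring a 2-fold FPKM difference, chosen after seeing the data, left 13 higher and 52 lower.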

Other observations

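In the neurotrophin, metallothionein and NRF2, immediate early and cell cycle lists edgeR called 0 of 13, 0 of 13, 0 of 12 and 0 of 11 tested genes. At an unadjusted p under 0.05 these lists held 0 higher and 2 lower, 2 higher and 2 lower, 3 higher and 0 lower, and 1 higher and 1 lower genes. DESeq2 called 1, 2, 1 and 1. Both crush pools lay above both naïve pools for 0, 5, 7 and 2 genes and below for 4, 4, 3 and 2. Over all tested genes 21.6% were above and 19.8% below. DESeq2 called *Gclm*, an enzyme of glutathione synthesis, lower, at 36.5 and 42.1 CPM in naïve retina and 17.7 and 17.4 CPM after crush (edgeR adjusted p = 0.0523). *Mt3*, a metallothionein of neurons and glia, was at 32 and 32.3 CPM and then at 15.7 and 16.3 CPM (edgeR adjusted p = 0.0863). *Cntfr*, the receptor of ciliary neurotrophic factor, was at 20.2 and 19.9 CPM and then at 7.38 and 13.2 CPM (edgeR adjusted p = 0.229). *Top2a*, a topoisomerase of dividing cells, was at 0.424 and 0.662 CPM and had 0 counts in both crush pools (edgeR adjusted p = 0.267).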
